A study of Mus musculus with 22 samples.

Results

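The C/EBP family was followed through 10 RNA libraries and 12 chromatin libraries of mouse myeloid cells that carry, or do not carry, mutant huntingtin. Its members were taken by name as the rows of the expression table with the symbols Cebpa, Cebpb, Cebpd, Cebpe, Cebpg and Cebpz, which are 6 of the 23953 gene symbols in the table, and all 6 were found. All 6 also passed the filter on low values in both fits described here. Cebpd, however, was below the filter's minimum of 1 RPKM in the 4 control BV2 libraries, so it entered the BV2 fit only through the mutant-fragment libraries and the cell type fit only through the primary cells, the libraries in which it was high. Its fitted differences from control BV2 cells therefore had a direction set by the filter.

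C/EBP proteins (CCAAT/enhancer-binding proteins) are basic leucine zipper (bZIP) transcription factors that bind DNA as dimers with each other or with related bZIP proteins. In the myeloid lineage they work together with PU.1, the product of Spi1, to set the enhancers and the gene programme of granulocytes, monocytes and macrophages. Cebpa and Cebpe act in granulocyte development, Cebpb and Cebpd are induced in inflammation and the acute phase response, and Cebpg is a short member that acts mostly as a dimer partner. Cebpz carries the family's name because its product binds CCAAT boxes, but it is not a bZIP protein. Ddit3 (CHOP), a bZIP factor of the stress response, is a relative under another name.

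BV2 is an immortalised mouse microglial line. Its cells had been transduced with the lentiviral vector pCDH, which was empty or carried, behind a CMV promoter, the N-terminal part of the human huntingtin protein. This part had a tract of 15 glutamines in the wild-type fragment (Nwt) and of 128 in the mutant fragment (Nmu). All were labelled as untreated. Each construct has 2 RNA libraries, of which the first is from 24 h. The other is 6 h in the table header and 48 h in the labels, so it is called the second time, and no order is assumed. H3K4me2 (a histone mark of active promoters and enhancers), PU.1, C/EBPalpha and C/EBPbeta were each profiled by chromatin immunoprecipitation at 24 h in the same 3 constructs, 1 library each. Primary cells were adult microglia sorted from the brain as CD11b+ CD45-low cells, and macrophages grown from bone marrow (BMDM) in L-cell conditioned medium. Both came from mice with wild-type huntingtin (Q7/7) or mutant huntingtin (Q175/175), with 1 RNA library for each cell type and genotype. The labels do not say how many animals or cultures a library holds, so the p-values here may not reflect spread between animals or cultures. They rest on spread between single libraries, part of which may be technical. Within a group these libraries also differ in time, construct or genotype. The level of the human fragments was not checked here.

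Levels are RPKM, in which transcript length and library size are both divided out, so they can be compared between genes. The low values stepped in whole reads and implied a depth of 10.8 to 14.0 M reads in BV2 libraries and 28.8 to 47.8 M in primary libraries. The sum of 9 homeostatic microglia markers was 4337 and 3633 RPKM in microglia (Q7 and Q175), 62.9 and 97.6 in macrophages, and 25.6 to 119 in BV2 cells, where P2ry12, Cx3cr1 and Sall1 were at or near 0 in all 6 libraries. The microglial label of BV2 was thus not matched by these defining markers. Of 7 macrophage and monocyte markers, Emr1 (F4/80), Ly6c2, Ccr2 and Itgam were highest in macrophages, with Emr1 at 271 and 273 RPKM. Mrc1 was at 75.7 and 72.1 RPKM in macrophages and higher, at 80.2 and 87.4, in empty-vector and Nwt cells at 24 h. Spi1 was highest in Nmu cells, at 47.8 and 70.2 RPKM, and Lyve1 was at 0.034 RPKM or less in every library. Granulocyte markers summed to 1876 RPKM in Q7 and 631 in Q175 microglia, and to 477 and 274 in macrophages, with S100a8 and S100a9 the main contributors. In bulk RNA, a change in the number of cells of a type and a change in RNA per cell cannot be told apart.

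In control BV2 cells the family was dominated by Cebpb. Over the 4 control libraries (empty vector and wild-type fragment) Cebpb was at 43.5 ± 9.97 RPKM (SD, n = 4), Cebpz at 17.9 ± 4.92, Cebpg at 7.87 ± 0.931, Cebpe at 7.01 ± 1.74, Cebpa at 5.62 ± 0.286 and Cebpd at 0.643 ± 0.100. The range of Cebpe overlapped those of its neighbours in this order, Cebpg and Cebpa, and Cebpd lay below all others in each of the 4 libraries. The plot of RNA level by library shows these values with their counting error.

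**Figure D1:**
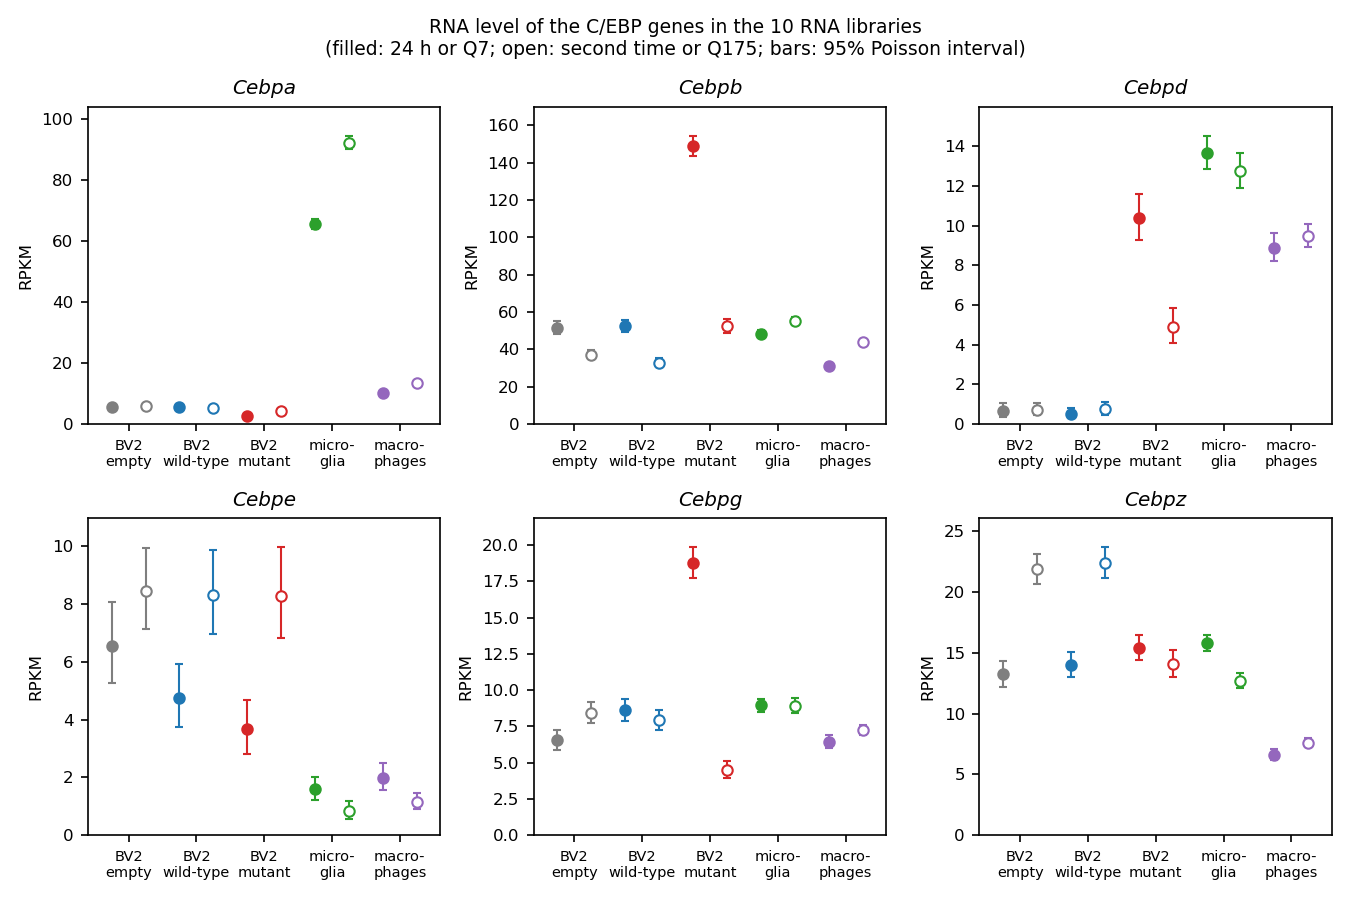
RPKM of each C/EBP gene (vertical axis, linear from 0) in the 10 RNA libraries, grouped on the horizontal axis. Points are single libraries, filled for 24 h or Q7 and open for the second time or Q175, and bars are 95% Poisson intervals on the implied reads. Cebpb and Cebpg peak in mutant-fragment cells at 24 h, Cebpd is below 1 in the 4 control BV2 libraries, and Cebpa is highest in the 2 microglia libraries.

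Cells with the mutant fragment had more Cebpd RNA in both libraries, more Cebpb and less Cebpa, but none of the 6 members passed the test that uses both times. In the comparison of mutant fragment and empty vector, 9 of 10350 genes (0.087%) were called by limma at an adjusted p under 0.05, all of them higher with the mutant fragment, and 1584 had an unadjusted p under 0.05. Against the wild-type fragment 7 genes (0.0676%) were called, all higher, and 1644 had an unadjusted p under 0.05. No member was among the genes called in either comparison. Cebpa, Cebpb and Cebpd had an unadjusted p under 0.05 in both. The fit has 2 residual degrees of freedom, since each construct has 1 library per time, and what it takes as error is how far a construct's effect differs between the times.

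Cebpd encodes C/EBPdelta, an immediate factor of acute phase and inflammatory signalling. It was at 0.637 and 0.696 RPKM in empty-vector cells (24 h and second time) and at 0.505 and 0.734 in Nwt cells. With the mutant fragment it was at 10.4 and 4.90 RPKM. Both mutant-fragment libraries lay above all 4 controls, which rested on 15 to 22 reads each. At 24 h the RPKM ratio to empty vector was 16.3, and at the other time it was 7.04. After adding 1 to RPKM and taking log2, a scale that shrinks the change of a gene this low, the difference was 2.30 (SE 0.32, adjusted p = 0.124) against empty vector and 2.34 (SE 0.32, adjusted p = 0.125) against the wild-type fragment. With no filter on low values the same differences had adjusted p-values of 0.212 and 0.198.

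Cebpb encodes C/EBPbeta, which is made as longer activating and shorter inhibitory proteins from 1 transcript, a difference that RNA does not show. It was at 51.6 and 37.1 RPKM in empty-vector cells, at 52.4 and 32.9 in Nwt cells, and at 149 and 52.4 in Nmu cells. At each time the mutant-fragment library was the highest of the 3 constructs, but at the second time it was level with the controls of 24 h, so the groups met. The log2 difference was 1.00 (SE 0.29, adjusted p = 0.249) against empty vector and 1.07 (SE 0.29, adjusted p = 0.230) against the wild-type fragment. Taken by time, the difference from empty vector was 1.51 (24 h) and 0.49 (second time).

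Cebpa encodes C/EBPalpha, the factor that commits progenitors to the myeloid lineage. Its level was 5.64 and 5.88 RPKM in empty-vector cells, 5.74 and 5.22 in Nwt cells, and 2.68 and 4.13 in Nmu cells. Both mutant-fragment libraries lay below all 4 controls. The log2 difference from empty vector was -0.64 (SE 0.21, adjusted p = 0.283) and from the wild-type fragment -0.57 (SE 0.21, adjusted p = 0.298). The ratio of Cebpb to Cebpa RPKM was 9.16 and 6.31 in empty-vector cells, 9.14 and 6.31 in Nwt cells, and 55.5 and 12.7 in Nmu cells.

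Cebpg encodes C/EBPgamma, a dimer partner of Atf4 in the response to amino acid shortage and stress. It was at 6.55 and 8.43 RPKM in empty-vector cells, 8.60 and 7.91 in Nwt cells, and 18.8 and 4.47 in Nmu cells. The 24 h mutant-fragment library was the highest of all 10 RNA libraries and the other one the lowest, so the effect against empty vector pointed up at 24 h (1.39 on the log2 scale) and down at the second time (-0.79). The combined difference was 0.30 (SE 0.55, adjusted p = 0.819).

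Cebpe encodes C/EBPepsilon, a factor of granule formation in maturing granulocytes. It was at 6.56 and 8.44 RPKM in empty-vector cells, 4.74 and 8.32 in Nwt cells, and 3.66 and 8.28 in Nmu cells, so the second library of each construct was the higher and the constructs overlapped. Its difference between mutant fragment and empty vector was -0.36 (SE 0.22, adjusted p = 0.489).

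Cebpz was at 13.2 and 21.9 RPKM in empty-vector cells and at 14.0 and 22.4 in Nwt cells. With the mutant fragment it was at 15.4 and 14.1, without the gap between the times that both controls showed. The difference from empty vector was -0.20 (SE 0.26, adjusted p = 0.742).

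The wild-type fragment had no called effect on the family. Its differences from empty vector ran from -0.21 (Cebpe) to 0.13 (Cebpg), all 6 with an adjusted p of 1, in a comparison where 0 of 10350 genes (0%) were called and 66 had an unadjusted p under 0.05. Between the times, 0 genes (0%) were called and 2812 had an unadjusted p under 0.05. The largest differences of second time minus 24 h among members were -0.87 for Cebpb (SE 0.24, adjusted p = 0.110) and 0.67 for Cebpe (SE 0.18, adjusted p = 0.106).

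Taking each time alone, with 1 library a group and no test, 3 of 6 members (Cebpb, Cebpd and Cebpg) were at least 2-fold higher with the mutant fragment than with empty vector at 24 h on the log2(RPKM + 1) scale, and none was 2-fold lower on it. As a plain RPKM ratio Cebpa was 0.476 of empty vector and 0.468 of the wild-type fragment at that time, just past 2-fold lower. Over all genes 1264 of 10307 (12.3%) differed by 2-fold in either direction. At the second time only Cebpd did, where 684 of 10210 genes (6.7%) did. Against the wild-type fragment the same 3 members were past 2-fold at 24 h (11.5% of all genes) and Cebpd alone at the second time (6.49%). Genes entered these shares with an RPKM of 1 or more in either library. Cebpd did so only through the mutant-fragment library, which set its direction, so its place in these counts is a description.

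The calls and differences of this fit moved with single libraries. Without the second-time mutant-fragment library, the differences from empty vector were 1.46 (Cebpb), 1.29 (Cebpg) and -0.89 (Cebpa). Without the 24 h mutant-fragment library, that of Cebpz was -0.59. The adjusted p of Cebpd against empty vector was 3.50e-04 and 3.73e-04 without the 24 h and the second-time wild-type-fragment library, and 0.160 and 0.0901 without the 24 h and the second-time empty-vector library. Against the wild-type fragment it ran from 0.00215 (second-time wild-type fragment left out) to 0.0374 (24 h wild-type fragment left out) over the 4 control libraries. Since the filter set the direction of Cebpd, these values are given as a description. Against the wild-type fragment, the differences without the second-time mutant-fragment library were 1.54 (Cebpb), 1.15 (Cebpg) and -0.83 (Cebpa). Without the 24 h one they were -0.64 (Cebpz), 0.61 (Cebpb) and -0.81 (Cebpg). Without either mutant-fragment library Cebpd no longer passed the filter and had no test. Second time minus 24 h came to -0.56 (Cebpb), 0.51 (Cebpe) and 0.66 (Cebpz) when either mutant-fragment library was left out. Leaving out 1 library lowers the residual degrees of freedom to 1, and a construct left with 1 library is assumed to vary like the others.

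**Figure D2:**
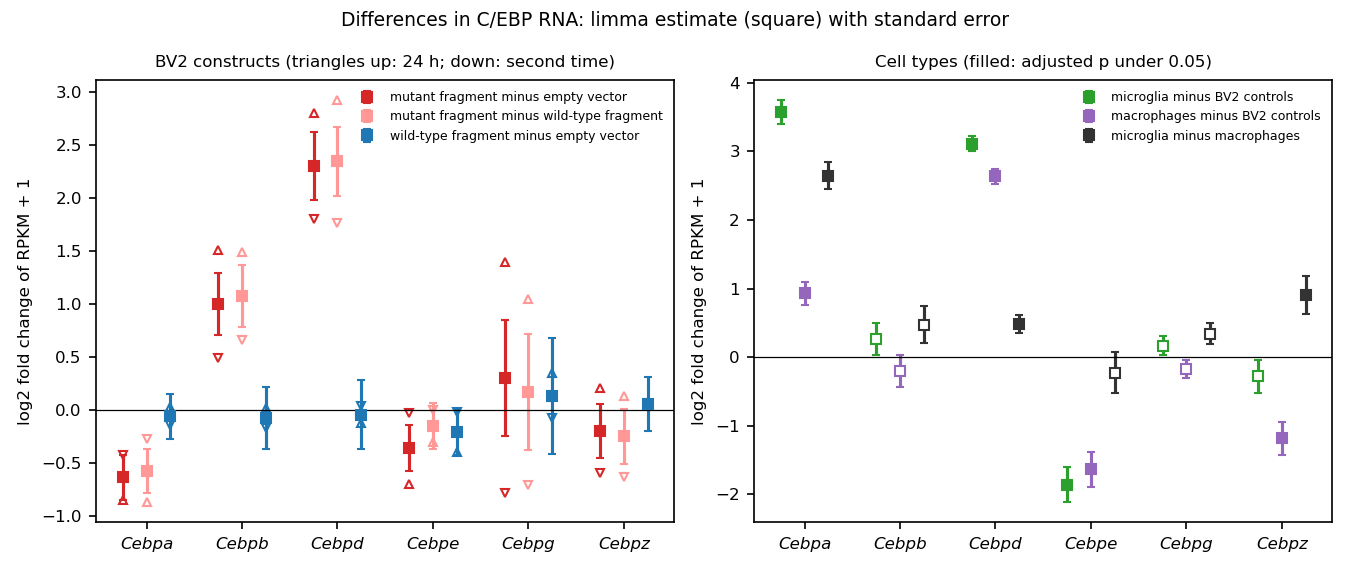
Log2 fold change of RPKM + 1 (vertical axis) for each C/EBP gene. Squares are limma estimates with bars of 1 standard error, and open triangles in the left panel give the difference at each time. Cebpd is above 1.7 at both times against both controls, the triangles of Cebpg lie on opposite sides of 0, and in the right panel filled squares mark adjusted p under 0.05.

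The cell types differed in which C/EBP gene led. Cebpa was at 65.6 and 92.4 RPKM in microglia (Q7 and Q175), at 10.1 and 13.3 in macrophages and at 5.22 to 5.88 in the 4 control BV2 libraries, with no overlap between the types. Microglia were higher than control BV2 cells by 3.58 on the log2 scale (SE 0.17, adjusted p = 7.17e-07) and higher than macrophages by 2.65 (SE 0.20, adjusted p = 1.68e-05). Macrophages were higher than control BV2 cells by 0.93 (SE 0.17, adjusted p = 0.00170). These tests take genotype, construct and time as spread within a cell type, and they compare cells that also differ in origin, culture and depth.

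Such calls were common. Between microglia and control BV2 cells 8389 of 11693 genes (71.7%) were called, between macrophages and control BV2 cells 65.7%, and between microglia and macrophages 61.3%. The members called were 3 of 6, 4 of 6 and 3 of 6, shares near or below those of all genes. Cebpd, which passed the filter only through the primary cells, is counted in each. The median log2 fold change of all genes was -0.23, 0.27 and -0.43 in these comparisons.

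Cebpb, by contrast, was at 48.2 and 55.1 RPKM in microglia and 31.1 and 43.7 in macrophages, and these overlapped the 32.9 to 52.4 of control BV2 cells. None of its 3 comparisons was called (0.27, SE 0.23, adjusted p = 0.329 for microglia and -0.21, SE 0.23, adjusted p = 0.462 for macrophages, each against control BV2 cells). Cebpa was the highest member in both microglia libraries, with 42.6% and 50.6% of the summed RPKM of the family. In macrophages Cebpb led with 47.7% and 53.0%. The ratio of Cebpb to Cebpa was 0.735 and 0.597 in microglia and 3.09 and 3.28 in macrophages, as the plot of one gene against the other shows.

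**Figure D3:**
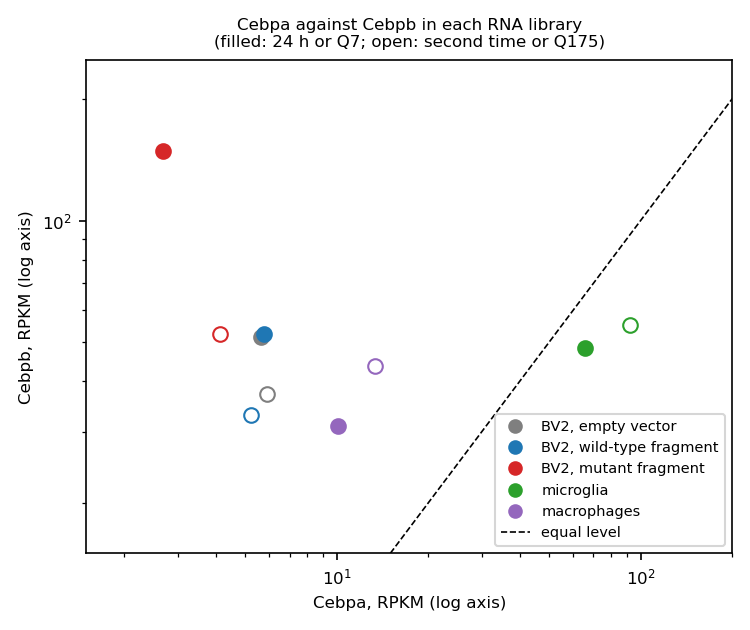
Cebpa (horizontal axis) against Cebpb (vertical axis), both in RPKM on log axes, in each of the 10 RNA libraries. Filled points are 24 h or Q7 and open points the second time or Q175. The 2 microglia libraries lie below the line of equal levels, and the mutant-fragment library of 24 h lies farthest above it, at a ratio of 55.5.

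Cebpd was at 13.7 and 12.8 RPKM in microglia and 8.89 and 9.49 in macrophages. Both were higher than control BV2 cells, by 3.11 (SE 0.11, adjusted p = 1.94e-07) and 2.63 (SE 0.11, adjusted p = 6.81e-07), and with no filter on low values the adjusted p-values were 8.63e-07 and 2.77e-06. Cebpd passed the filter of this fit only through the primary cells, which set the direction of both differences, so they are a description. Mutant-fragment BV2 cells, which were not in this fit, had 10.4 and 4.90 RPKM, in and below the range of the primary cells. Microglia were above macrophages by 0.48 (SE 0.13, adjusted p = 0.0140).

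Cebpe was lower in primary cells, at 1.58 and 0.817 RPKM in microglia and 1.98 and 1.15 in macrophages against 4.74 to 8.44 in control BV2 cells. The differences were -1.86 (SE 0.26, adjusted p = 3.01e-04) and -1.63 (SE 0.26, adjusted p = 6.99e-04). In both primary cell types the Q7 library, which had the higher sum of granulocyte markers, also had the higher Cebpe level. S100a8 and S100a9 were the main part of that sum, and some markers were higher in Q175. These were Csf3r in microglia (42.5 in Q7 and 45.7 RPKM in Q175), and Mmp8 (42.7 and 53.0), Mpo, Elane and Retnlg in macrophages. The part of granulocyte RNA in the Cebpe level was not tested.

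Cebpz was at 15.8 and 12.7 RPKM in microglia and 6.61 and 7.61 in macrophages, and macrophages minus control BV2 cells came to -1.18 on the log2 scale (SE 0.24, adjusted p = 0.00286). Microglia were above macrophages by 0.91 (SE 0.28, adjusted p = 0.0220). Microglia and control BV2 cells were not called apart (-0.28, adjusted p = 0.331), and under quantile normalization that difference turned to 0.18 (adjusted p = 0.372). Cebpg was at 8.94 and 8.93 RPKM in microglia and 6.44 and 7.26 in macrophages, around the 6.55 to 8.60 of control BV2 cells. It was called in none of the 3 comparisons (0.17, -0.17 and 0.34), although under quantile normalization all 3 were called, as was Cebpb between microglia and macrophages at 1.33 (adjusted p = 0.00967). The share of all genes called under that normalization is not given here, so these calls have no background beside them. The call of Cebpd between microglia and macrophages was lost without either microglia library (adjusted p = 0.0954 without Q7 and 0.0557 without Q175). That of Cebpz was lost without the Q7 microglia library (adjusted p = 0.122), the Q7 macrophages (0.101) or the Q175 macrophages (0.0614).

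Between genotypes no member differed by 2-fold on the log2(RPKM + 1) scale in either primary cell type. In microglia, where 110 of 9849 genes (1.12%) did, Q175 minus Q7 was 0.49 on the log2 scale for Cebpa, 0.19 for Cebpb, -0.09 for Cebpd, -0.51 for Cebpe, -0.00 for Cebpg and -0.30 for Cebpz. In macrophages, where 237 of 10230 genes (2.32%) did, the values were 0.37, 0.48, 0.08, -0.47, 0.15 and 0.18. Cebpa was higher in the Q175 library of both cell types, at 92.4 RPKM (95% Poisson interval 90.2 to 94.6) against 65.6 (64.0 to 67.3) in microglia and at 13.3 (12.7 to 14.0) against 10.1 (9.37 to 10.8) in macrophages. These intervals cover counting error only, and with 1 library a genotype there is no test.

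The deposited peak lists place binding at the family's own genes. A peak was assigned to a member when its centre lay within 20 kb of the annotated start, and positions are mm9. All 6 members had an H3K4me2 peak in each construct, where 65.2% of all 23953 genes did with empty vector, 64.8% with the wild-type fragment and 66.2% with the mutant fragment. All 6 had a PU.1 peak in each construct, against 69.9%, 62.7% and 67.8% of all genes. All 6 also had a C/EBPbeta peak in each construct, against 53%, 68% and 59.7%. A C/EBPalpha peak was found at 4, 5 and 3 of the 6 members, against 25.9%, 38.7% and 21.7%.

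Expressed genes carry more peaks, and the members are expressed. Among the 10350 genes tested in BV2 cells, a C/EBPbeta peak lay near 73.7%, 91.4% and 83.1% (empty vector, wild-type fragment, mutant fragment), a PU.1 peak near 89.7%, 82.8% and 87.7%, and H3K4me2 near 95.9% to 96.3%. For C/EBPalpha the shares were 38.2%, 57.5% and 32.3%. With 6 genes, having such a peak at every member is close to these shares for H3K4me2, PU.1 and C/EBPbeta.

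Differences between constructs have to be read against list lengths. The C/EBPbeta lists hold 35964, 69522 and 47893 peaks and the C/EBPalpha lists 11645, 19732 and 9117 (empty vector, wild-type fragment, mutant fragment), and members had 18, 36 and 29 C/EBPbeta peaks and 7, 18 and 6 C/EBPalpha peaks. The PU.1 lists hold 71846, 53835 and 64744 peaks, with 23, 22 and 16 at the members. The share of tags in C/EBPbeta peaks was 8.09%, 23.0% and 24.3%. With 1 library per antibody and construct, a peak present in 1 list and not in another is a difference between those libraries, and none was tested.

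Merging overlapping peaks of 1 antibody gave 42 C/EBPbeta regions at the members, of which 14 (33.3%) were in all 3 constructs, against 34.3% of 80260 such regions in the genome. For C/EBPalpha 3 of 21 regions were in all 3 (14.3%, genome 25.6%), for PU.1 11 of 32 (34.4%, genome 40.8%) and for H3K4me2 18 of 22 (81.8%, genome 64.2%). In the genome 91.0% to 94.9% of C/EBPalpha peaks overlapped a C/EBPbeta peak of the same construct. At the members it was 4 of 7 with empty vector, 15 of 18 with the wild-type fragment and 4 of 6 with the mutant fragment. Whether either antibody recognised both proteins was not tested.

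**Figure D4:**
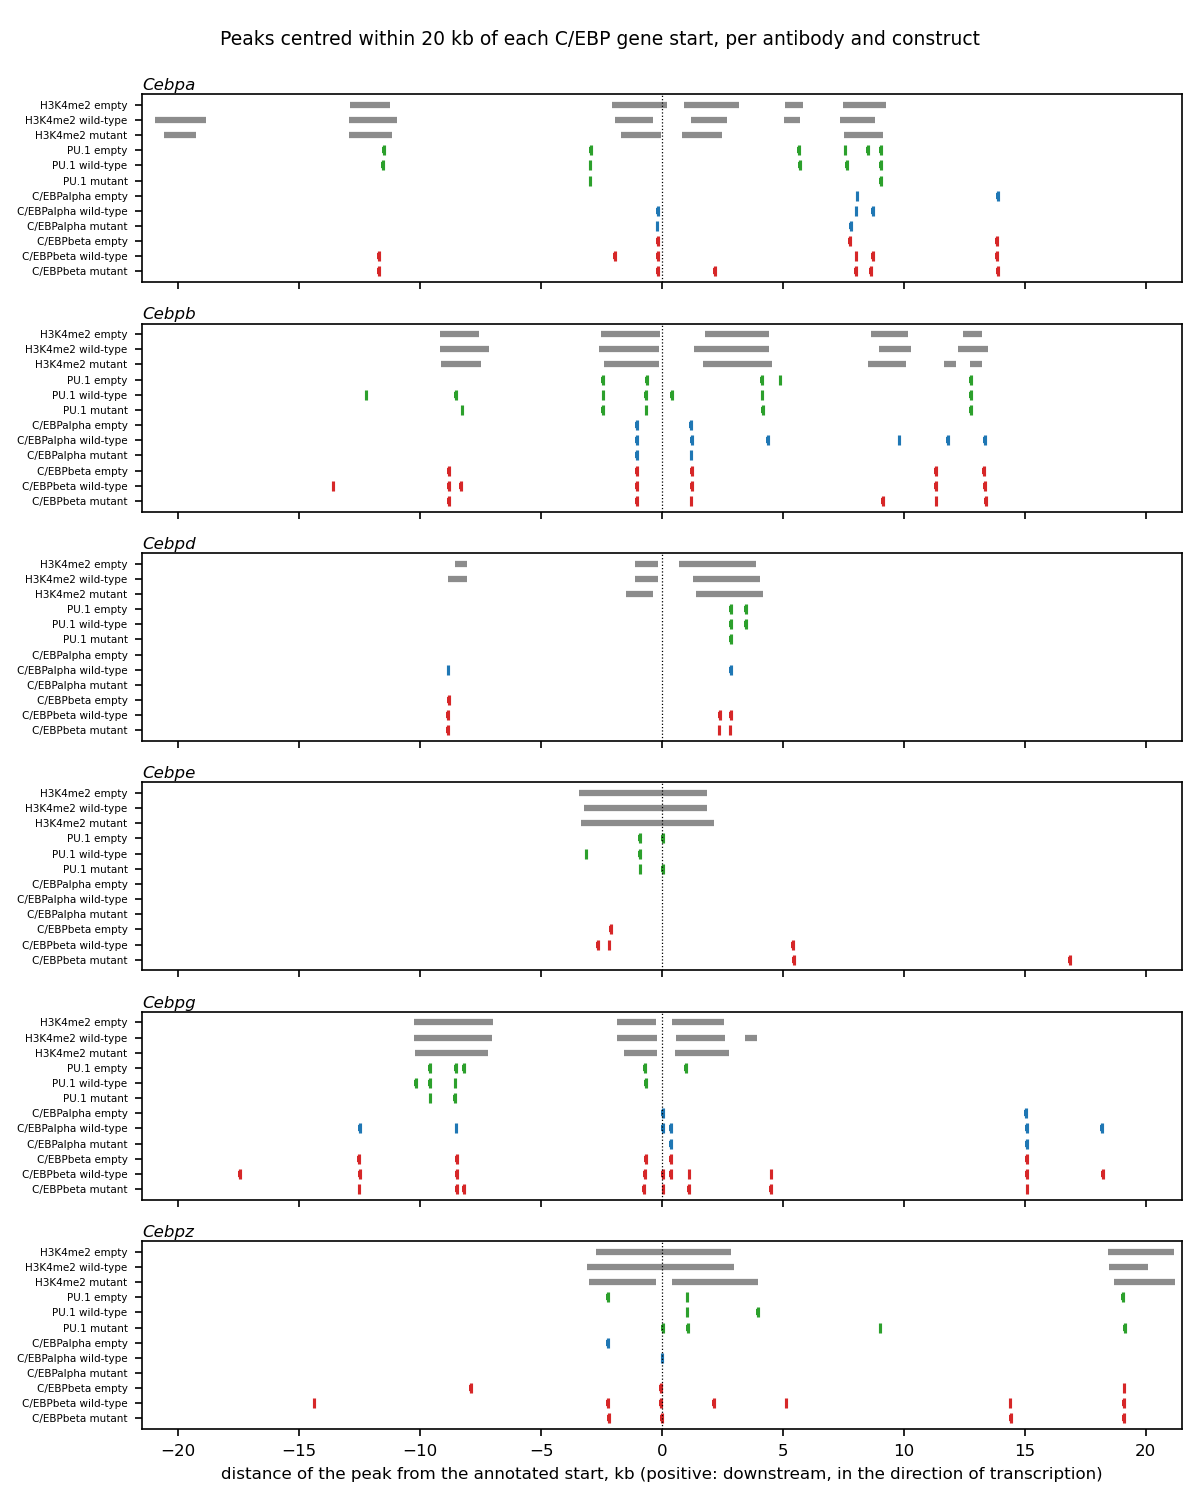
Peaks centred within 20 kb of each C/EBP gene start, with distance from the start in kb on the horizontal axis (positive is downstream) and 1 row per antibody and construct. Bars span H3K4me2 peaks and ticks mark factor peaks of 131 to 149 bp. The C/EBP ticks near the starts of Cebpa, Cebpb, Cebpg and Cebpz recur between constructs, and Cebpe has no C/EBPalpha tick.

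Cebpa (chr7:35904312-35906947, plus strand) had a C/EBPbeta region just before its start in all 3 constructs, chr7:35904057-35904222, with its centre at -173 bp. A C/EBPalpha peak overlapped it with the wild-type and mutant fragments. A second cluster lay 7.6 to 9.1 kb downstream, where C/EBPalpha, C/EBPbeta and PU.1 peaks and an H3K4me2 region occurred in all 3 constructs, but the C/EBP peaks of the constructs were centred at different places within it (7780 bp with empty vector and 8026 and 8669 bp with both fragments for C/EBPbeta). PU.1 peaks at Cebpa numbered 6 with empty vector, 5 in Nwt cells and 2 in Nmu cells. Those at -11511, 5673 and 7606 bp were in both controls and not with the mutant fragment, and those at -2960 and 9054 bp were in all 3.

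The promoter of Cebpa is shown because it lies under this region. It is the 250 bases before the start in the RefSeq annotation of GRCm38.p6 (chr7:35119043-35119292, plus strand), written 5′ to 3′. Capitals mark the matches found in a search of both strands for 6 motifs: TTGCGCAA (the C/EBP palindrome), TTNCNNAA (its degenerate form), TTGCG (the core of a C/EBP site), CCAAT (the box after which the family is named), TGACG (the core of a cyclic AMP response element) and TATAAA. A TTGCGCAA match holds TTGCG and a TTNCNNAA match too.
Cebpa: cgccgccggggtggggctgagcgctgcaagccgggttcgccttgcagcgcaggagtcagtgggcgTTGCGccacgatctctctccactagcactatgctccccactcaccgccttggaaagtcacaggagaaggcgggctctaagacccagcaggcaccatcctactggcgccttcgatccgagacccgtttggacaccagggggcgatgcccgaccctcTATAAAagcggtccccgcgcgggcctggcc
TTGCG was found at bases -185 to -181 from the start, and TATAAA at -30 to -25. Over 32851 promoters of the same length, 14.5% held TTGCG and 12.4% TATAAA. The C/EBPbeta region spanned bases -255 to -90 from the mm9 start and the C/EBPalpha region -269 to -114. The gene spans 2636 bp in both annotations, but the distances are each from their own build, and a match of letters is a description, not a site.

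Cebpb (chr2:167514415-167515932, plus strand) had C/EBPalpha and C/EBPbeta peaks together in all 3 constructs at 2 places. The first was 1.0 kb upstream (C/EBPbeta at chr2:167513292-167513441, centred at -1049 bp). The other lay inside the gene, at chr2:167515558-167515726 and 1227 bp from the start. C/EBPbeta was also in all 3 constructs at -8808, 11331 and 13350 bp. PU.1 was in all 3 at -2446, -641, 4144 and 12777 bp. Of the 8 C/EBPbeta regions at Cebpb, 5 were thus shared by the constructs, the most of any member.

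The 250 bases before the Cebpb start, shown for comparison because the C/EBP peaks lay outside them, held none of the C/EBP motifs searched (GRCm38.p6, chr2:167688665-167688914, plus strand).
Cebpb: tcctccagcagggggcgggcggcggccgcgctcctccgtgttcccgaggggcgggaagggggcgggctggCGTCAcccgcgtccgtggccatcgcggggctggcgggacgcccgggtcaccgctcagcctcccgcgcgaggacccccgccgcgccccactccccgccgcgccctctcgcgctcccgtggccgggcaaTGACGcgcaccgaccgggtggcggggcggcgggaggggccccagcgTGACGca
The capitals are TGACG, or its reverse complement, at bases -180 to -176, -53 to -49 and -7 to -3. Such a match was in 17.8% of all promoters.

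Cebpg (chr7:35831441-35841585, minus strand) had 5, 10 and 8 C/EBPbeta peaks (empty vector, wild-type fragment, mutant fragment). These were the most of the family with both fragments, and level with Cebpb with empty vector. Among expressed genes, 7.66%, 1.63% and 2.36% had as many. C/EBPalpha and C/EBPbeta occurred together in all 3 constructs at chr7:35826407-35826587, 15088 bp downstream of the start. C/EBPbeta was also in all 3 at -715, -8482 and -12515 bp, and C/EBPalpha overlapped the last 2 of these with the wild-type fragment only. PU.1 overlapped the region at -8482 bp in all 3 constructs and that at -715 bp in both controls. At the start itself, 40 bp downstream, a C/EBPbeta region was found with the wild-type and mutant fragments and a C/EBPalpha region with empty vector and the wild-type fragment. Cebpg and Cebpa lie on the same chromosome, with starts farther apart than the 20 kb window.

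The bases before the Cebpg start are shown because these regions reach into them (GRCm38.p6, chr7:35056567-35056816, minus strand, written in the direction of transcription).
Cebpg: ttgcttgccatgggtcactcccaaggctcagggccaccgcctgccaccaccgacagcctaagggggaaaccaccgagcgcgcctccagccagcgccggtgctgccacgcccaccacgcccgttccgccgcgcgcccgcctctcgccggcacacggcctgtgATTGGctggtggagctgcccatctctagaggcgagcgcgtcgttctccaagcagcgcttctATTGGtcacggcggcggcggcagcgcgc
The capitals are the reverse complement of CCAAT, at bases -89 to -85 and -28 to -24, a box that 33.8% of promoters held. The C/EBPbeta region at the start reached to base -46 and the C/EBPalpha region to base -28 in mm9 distances.

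Cebpd (chr16:15887379-15889638, plus strand) had 7 PU.1 and C/EBP regions, as did Cebpe, the fewest of the family. C/EBPbeta was in all 3 constructs 8.8 kb upstream, at chr16:15878452-15878645. At 2385 and 2827 bp downstream it was found with the wild-type and mutant fragments and not with empty vector. The empty-vector C/EBPbeta list is the shortest, with 35964 peaks against 69522 and 47893. Whether these places bear on Cebpd RNA, which was at control level with the wild-type fragment, was not tested. The second of these places (chr16:15890130-15890283) overlapped a PU.1 peak present in all 3 constructs and a C/EBPalpha peak found only in the wild-type-fragment list. No factor peak lay within 2 kb of the Cebpd start.

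Cebpe (chr14:55329200-55331011, minus strand) had no C/EBPalpha peak in any construct and no C/EBPbeta region common to all 3. C/EBPbeta was found at -2149 bp with empty vector and the wild-type fragment, and 5436 bp downstream with both fragments. PU.1 was in all 3 constructs at -914 bp. A single broad H3K4me2 region covered its start in each construct.

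Cebpz (chr17:79318343-79336410, minus strand) shares its promoter with Ndufaf7, a mitochondrial complex I assembly gene that starts 65 bp away on the other strand. C/EBPbeta was found at this shared start in all 3 constructs (chr17:79336347-79336534) and C/EBPalpha there with the wild-type fragment. C/EBPbeta and PU.1 also met 19.1 kb downstream, with PU.1 in the empty-vector and mutant-fragment lists. Ndufaf7 was at 6.75 and 6.67 RPKM with empty vector and 4.17 and 5.84 with the mutant fragment (log2 difference -0.38, SE 0.19, adjusted p = 0.422). The only other gene starting within 20 kb of a member was A530013C23Rik, 2293 bp downstream of the Cebpb start on the same strand, which was at 0.307 RPKM or less in every library.

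Partners and regulators of C/EBP proteins were read from a list of 20 genes, all in the table. Of these 18 were tested in BV2 cells and none was called against either control. Their median log2 fold change was 0.22 against empty vector and 0.07 against the wild-type fragment, where those of all genes were -0.00 and -0.01. In each of the 2 comparisons 10 lay above 0 and 8 below. The 5 with the largest difference in the same direction at both times were Id2, Ddit3, Atf3, Dbp and Atf5. Id2, an inhibitor of helix-loop-helix factors, was at 6.67 and 7.27 RPKM in empty-vector cells, 8.99 and 7.85 in Nwt cells and 79.2 and 29.2 in Nmu cells (2.63, SE 0.40, adjusted p = 0.136). Ddit3 was at 18.0 and 4.79 RPKM in empty-vector cells and 146 and 5.48 in Nmu cells (1.56, SE 0.70, adjusted p = 0.372), so its difference lay at 24 h. Atf3, a stress-induced bZIP factor, was at 30.9 and 13.8 RPKM in empty-vector cells and 112 and 25.9 in Nmu cells (1.35, SE 0.28, adjusted p = 0.188). Dbp, a circadian bZIP factor, had a difference of -1.15 (SE 0.32, adjusted p = 0.239), and Atf5 one of 0.97 (SE 0.18, adjusted p = 0.176). In microglia 12 of 19 tested list members were called higher and 5 lower than in control BV2 cells, and in macrophages 8 and 4, where 71.7% and 65.7% of all genes were called in either direction. Over all 11693 genes, 3540 were called higher and 4849 lower in microglia, and 4910 and 2777 in macrophages. Batf passed the filter of that fit only through the primary cells, which set its direction. Fos and Jun, the bZIP factors of AP-1, were at 586 and 532 RPKM in Q7 microglia and at 1.55 and 19.6 in empty-vector cells at 24 h.

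Known targets of C/EBP factors were read from a list of 25 genes, of which 19 were tested in BV2 cells. None was called. Of the 19, Lcn2, Il1rn and Csf3r passed the filter only through the mutant-fragment libraries. Over all 25 with no filter, 16 lay above 0, 6 below and 3 at 0 against empty vector, with a median of 0.66, and the median was 0.49 against the wild-type fragment. Over all 23953 genes, 7577 lay above 0, 7324 below and 9052 at 0 against empty vector, with a median of 0 in both comparisons. The list was chosen with earlier results of these data known, so its counts and medians are a description. The 5 named by size and direction were Lcn2, Arg1, C3, Tnf and Fabp4. Lcn2 (lipocalin 2, an acute phase protein) was at 0.106 and 0.084 RPKM in empty-vector cells and 219 and 1.98 in Nmu cells (4.55, SE 1.61, adjusted p = 0.302). It is also on the list of 12 granulocyte markers, of which 4 (S100a9, Ltf, Mpo and Retnlg) were at 0 in all 6 BV2 libraries. Without Lcn2 the other 11 summed to 4.09 to 5.60 RPKM in the 4 control libraries and to 4.40 and 7.84 in Nmu cells. Among them Csf3r (2.08 and 1.29 RPKM), Mmp9 (1.43 and 1.79) and Ngp (0.126 and 0.241) were higher in both Nmu libraries than in any control, and Mmp8 (0.269 and 0.571) was lower. The part of granulocyte RNA was not tested. C3, the central complement protein, was at 6.75 and 1.44 RPKM in empty-vector cells and 35.2 and 23.1 in Nmu cells (2.76, SE 0.32, adjusted p = 0.105). Tnf, an inflammatory cytokine, was at 1.86 and 3.30 RPKM in empty-vector cells and 15.9 and 18.3 in Nmu cells (2.36, SE 0.20, adjusted p = 0.0557). Arg1 (arginase, which degrades arginine) was at 190 and 22.5 RPKM in empty-vector cells and 1.34 and 4.88 in Nmu cells (-4.17, SE 1.21, adjusted p = 0.248). Fabp4, a fatty acid carrier, was at 78.7 and 30.2 against 6.88 and 12.4 RPKM (-2.28, SE 0.58, adjusted p = 0.223). Against control BV2 cells, 15 of 25 were called higher and 5 lower in microglia, and 18 and 4 in macrophages, where 71.7% and 65.7% of all genes were called in either direction. In that fit 9 of the 25 passed the filter only through the primary cells.

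The genes whose levels ran most like each member over the 10 RNA libraries were found by Pearson's r of log2(RPKM + 1) among 10213 genes, as a description without a test, since libraries share cell type and depth. Cebpa ran with Gpr155 (r = 0.99), Vav2 (0.99) and Klf2 (0.99), all highest in microglia. Cebpd ran with Id2 (0.99), Vav1 (0.97) and Ddrgk1 (0.96). Cebpb ran with Slc38a7 (0.92), Ddit3 (0.92) and Rgp1 (0.92), and Cebpg with Rbm18 (0.88), Gpbp1 (0.87) and 5430416N02Rik (0.87), which were highest with the mutant fragment at 24 h. Cebpe ran with Pnp2 (0.99), Rnf26 (0.98) and Sgsm1 (0.97), and Cebpz with Dnaja1 (0.96), Edc4 (0.95) and Vprbp (0.95). Between members, r was highest for Cebpb and Cebpg (0.73) and lowest for Cebpd and Cebpe (-0.80), over the same 10 libraries.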

How the data were processed

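The authors deposited 1 table of RPKM values for 31641 RefSeq transcripts (mm9). For RNA, STAR 2.0.3e, HOMER and edgeR appear in the submitters' processing notes, and for chromatin Bowtie and HOMER. The handling of reads shared by similar genes is not stated. Peaks were called with HOMER in 1 library at a time, per the file headers. The header of the empty-vector C/EBPalpha list asks for at least 4 times the tags of an input (p of 1e-04) and of the surrounding region. Its false discovery rate is 0.001. The settings of the other lists are not given here. The headers name an input of another macrophage source, not of BV2 cells. The deposited peak score is 1 throughout, so peaks were not ranked.

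Each symbol was represented by its transcript of highest mean RPKM. A gene entered a fit when 2 or more of its libraries reached an RPKM of 1. The test was limma 3.58.1 (R 4.3.3) on log2(RPKM + 1), with Benjamini-Hochberg adjustment over all genes tested and a threshold of 0.05. The BV2 fit (6 libraries) had construct and time as terms, and the cell type fit (8 libraries) had cell type, with the mutant-fragment libraries left out. On simulated data both fits were checked for known changes. Poisson intervals (95%) are on the reads implied by the RPKM steps. Promoters are from RefSeq (GRCm38.p6). That table held 3 of the 6 members.

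Genes named beside the members are the 5 of each list with the largest absolute log2 fold change of mutant fragment against empty vector in the same direction at both times, the 3 genes most like each member (transcripts of 200 bases or more), and every gene starting within 20 kb of a member. A few others from the lists, such as Fos and Jun and the marker genes, were named after their values were seen. The members and lists were chosen with earlier results of these data known.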

Additional observations from a re-analysis of the deposited data

Results flagged for a closer look

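Cebpg responded to the mutant fragment in opposite directions at the 2 times. Its level differed from empty vector by 1.39 (24 h) and -0.79 (second time) on the log2(RPKM + 1) scale. From the wild-type fragment it differed by 1.05 and -0.70. Each value rests on 1 library a side, and the difference between the times was not tested. A minimum of 0.5 in both directions was set for this comparison, and no other member passed it, between the times or between the genotype differences of microglia and macrophages.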

How the results depend on the processing

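The number of genes called depended strongly on the fit, while most member differences kept their direction. Of 246 member differences recomputed under another pseudocount, filter, scaling, transcript summary, time term or control group, 241 kept direction and side of the threshold, 4 were newly called and 1 turned, Cebpz in microglia against control BV2 cells, at 0.18 with quantile normalization. The genes called for mutant fragment against empty vector numbered 0 with a pseudocount of 5, 0 without a filter, 15 with summed transcripts and 3 without the time term (no replicate block), and against the wild-type fragment 0, 0, 13 and 4. Between the times 444 were called with a pseudocount of 5. Under quantile normalization 5 members were called between microglia and macrophages, where the main fit already called 61.3% of all genes. The cause was not tested, and the share of all genes called under that normalization is not given here.

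Leaving out 1 library at a time gave 16 to 3400 genes called against empty vector, 73 to 3410 against the wild-type fragment, 0 to 41 between the controls and 0 to 4598 between the times. Members called were 0 to 3, 1 to 3, 0 to 0 and 0 to 3. For cell types, not all member calls between microglia and macrophages were kept, where 61.3% of all genes were called with every library in. Differences that changed sign ranged, for mutant fragment minus empty vector, from -0.68 to 1.29 (Cebpg) and -0.59 to 0.19 (Cebpz). For mutant minus wild-type fragment they ranged from -0.81 to 1.15 (Cebpg), -0.39 to 0.089 (Cebpe) and -0.64 to 0.14 (Cebpz). For wild-type fragment minus empty vector they were -0.25 to 0.13 (Cebpa), -0.38 to 0.23 (Cebpb), -0.37 to 0.28 (Cebpd), -0.47 to 0.054 (Cebpe), -0.52 to 0.78 (Cebpg) and -0.16 to 0.26 (Cebpz). For second time minus 24 h they were -0.032 to 0.27 (Cebpa) and -0.98 to 0.11 (Cebpg), for macrophages minus control BV2 cells -0.45 to 0.034 (Cebpb), and for microglia minus macrophages -0.48 to 0.028 (Cebpe).

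The number of members with a peak kept within 1.5 times of its value under a window of 10 or 50 kb and with only nearest genes. Of 100 recomputed peak values 16 moved by more, all with a wider or narrower window, and none with the stricter overlap. Depth limits Cebpd in control BV2 cells, where it rested on 15 to 22 reads a library.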
